A study of Homo sapiens with 12 samples.

Results

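Genes named by symbol as voltage-gated ion channel subunits were examined for the promoter mark H3K4me3 in BON1 cells. They were the protein-coding genes whose symbols begin with CACNA1, CACNA2D, CACNB, CACNG, SCN with digits and A or B, KCN with a letter and a digit, or HCN with a digit, leaving out hyphenated symbols. This gave 126 of 20136 protein-coding genes in the GENCODE annotation of GRCh37, in 16 subunit families. The rule works on names, so it also takes in inward rectifiers (KCNJ), background channels (KCNK) and calcium- or sodium-activated channels (KCNN, KCNT), whose gating does not depend mainly on voltage.

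BON1 is a line from a human pancreatic neuroendocrine tumor. Control cells (BON1/TGL/pQ) were compared with cells overexpressing HA-Bcl-xL, an HA-tagged anti-apoptotic protein (BON1/TGL/HA-Bcl-xL). Both were grown in medium with puromycin, and chromatin was profiled by CUT&RUN, in which an antibody tethers a nuclease that cuts out the marked chromatin, from 500000 cells per condition. The analysis used 5 H3K4me3 libraries, from control replicates 1 to 3 and from replicates 2 and 3 of the HA-Bcl-xL line, and 6 libraries with a rabbit anti-mouse IgG, 3 per line. The H3K4me3 library of HA-Bcl-xL cells numbered 1 was not analysed here. The labels give 1 line per condition, so the transgene and the line that carries it cannot be told apart.

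Voltage-gated channels open when the membrane potential changes. Pore-forming alpha subunits carry the calcium, sodium or potassium current, and auxiliary subunits (alpha2delta, beta, gamma, KCNE) set their trafficking and gating. In neuroendocrine cells, calcium entry through such channels triggers the release of hormone granules. H3K4me3, trimethylation of lysine 4 of histone H3, lies at the 5′ ends of genes that are transcribed or poised for transcription.

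The lists held 10247 to 17711 peaks per H3K4me3 library and 244 to 2113 per IgG library, resting on a median of 9 to 12 and 3 to 5 fragments at the summit. The fragments at a summit were solved from the fold and p that the authors' list gives for each peak. The cell label was checked with markers. Promoters of 8 of 15 neuroendocrine genes (53.3%) carried a peak in at least 1 H3K4me3 library, near the 48.2% of all genes, so that count does not set them apart. In all 5 libraries 4 of the 15 had one (NEUROD1, SCG2, SCG3 and CHGB), against 21.3% of all genes. CHGA had one in 1 library, and 7 of the 15 had none. All 5 epithelial markers had one in at least 1 library, 3 of them in all 5 and KRT19 in 1. Of the others, 0 of 7 fibroblast, 0 of 5 immune, 0 of 3 endothelial, 0 of 4 muscle and 1 of 6 neuronal markers (NEFL, in 1 library) had one. No peak at a promoter says only that none was called at this depth.

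Channel genes with a peak at the 5′ end in every library were few, and sequences under such peaks are given first for KCNE4 and SCN11A, since they are sites on which the shared calls rest. Capitals mark CpG, the dinucleotide that is dense in most H3K4me3-marked promoters. All are from GRCh37, 5′ to 3′ on the gene's strand, and stretches within annotated UTRs are left out. KCNE4 has a stretch just before its 5′ end (chr2:223916831-223916907, plus strand, 3 CpG in 77 bases) and one in an intron (chr2:223917210-223917400, 3 CpG in 191 bases). SCN11A (chr3:39093436-39093503, minus strand, 4 CpG in 68 bases) is the part of its shared peaks outside annotated UTRs, and overlaps an exon of SCN11A.
KCNE4, before the 5′ end: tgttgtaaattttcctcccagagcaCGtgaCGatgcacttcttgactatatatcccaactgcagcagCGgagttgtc
KCNE4, intron: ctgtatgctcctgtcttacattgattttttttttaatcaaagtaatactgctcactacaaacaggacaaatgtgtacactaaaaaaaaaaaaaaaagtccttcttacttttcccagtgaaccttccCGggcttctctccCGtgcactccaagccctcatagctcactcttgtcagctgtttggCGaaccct
SCN11A: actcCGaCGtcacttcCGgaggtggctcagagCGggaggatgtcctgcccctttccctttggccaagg

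For comparison, these are the 150 bases before the 5′ ends of HCN2 (chr19:589731-589880, plus strand), CACNA1B (chr9:140772084-140772233, plus strand) and KCNJ4 (chr22:38851206-38851355, minus strand). They were taken as the members of highest GC content with no peak within 2.5 kb in any H3K4me3 library. HCN2 encodes a hyperpolarization-activated pacemaker channel, CACNA1B the pore of N-type calcium channels and KCNJ4 an inward rectifier. The CACNA1B stretch overlaps a long noncoding RNA gene outside its exons, and the stretches of HCN2 and KCNJ4 overlap no annotated gene.
HCN2: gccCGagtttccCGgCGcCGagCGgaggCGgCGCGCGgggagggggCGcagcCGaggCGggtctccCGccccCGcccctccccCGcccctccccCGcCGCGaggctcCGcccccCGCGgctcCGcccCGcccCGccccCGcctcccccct
CACNA1B: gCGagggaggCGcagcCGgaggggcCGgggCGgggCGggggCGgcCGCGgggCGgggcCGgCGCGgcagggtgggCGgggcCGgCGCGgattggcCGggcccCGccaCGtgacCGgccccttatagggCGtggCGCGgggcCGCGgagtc
KCNJ4: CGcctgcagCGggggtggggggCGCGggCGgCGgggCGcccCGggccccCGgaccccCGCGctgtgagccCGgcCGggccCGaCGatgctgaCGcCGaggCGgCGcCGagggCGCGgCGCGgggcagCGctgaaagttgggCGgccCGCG
Their high GC content follows from that choice. These unmarked stretches held 25, 26 and 28 CpG and a GC content of 88.0%, 86.7% and 86.0%. The marked stretches had a GC content of 63.2% at SCN11A, and 46.8% and 40.8% at KCNE4. Over the 2 kb around the 5′ end, channel genes with and without a peak there had nearly the same median GC content, 59.02% and 58.97%. Their median CpG counts were 112 and 102, and their median CpG observed-to-expected ratios 0.647 and 0.554.

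A promoter peak here is a peak that overlaps the 1 kb on either side of a gene's most 5′ annotated end. Of the 126 channel genes, 15, 6 and 6 carried one in control replicates 1 to 3, and 12 and 6 did so in the HA-Bcl-xL libraries. That is 4.76 to 11.9% of channel genes per library, against 28.2 to 40.4% of all protein-coding genes in the same libraries. Over the 5 libraries, 19 channel genes (15.1%) had a peak in at least 1, against 48.2% of all genes, and 3 (2.38%) had one in all 5, against 21.3%. Another 8 had a peak in 1 library, 3 in 2, 4 in 3 and 1 in 4, and 107 had none. Of the 8 single-library genes, 6 came from control replicate 1, the list with the most peaks, and without that library 13 (10.3%) had any peak, against 45.8% of all genes. The wider window of 2.5 kb gave 29 channel genes (23.02%) with a peak in at least 1 library, against 53.5% of all genes, and 9 in all 5 (7.14%), against 25.6%.

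**Figure D1:**
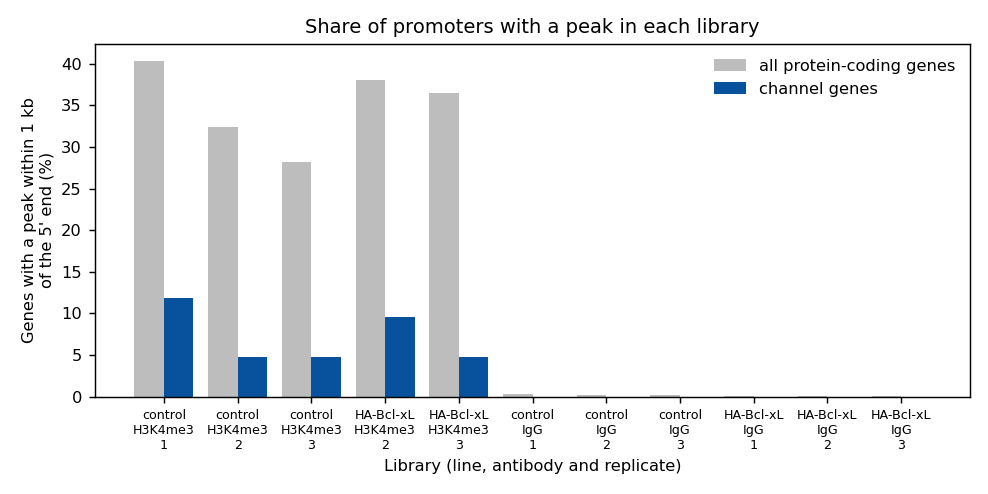
Percentage of genes with a peak within 1 kb of the 5′ end (vertical axis) in each of the 11 libraries, for all protein-coding genes (grey bars) and channel genes (blue bars); each bar is a single library. In the 5 H3K4me3 libraries the blue bars reach 4.76 to 11.9% and the grey bars 28.2 to 40.4%, and no channel gene has a peak in an IgG library.

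In the IgG libraries 0 of 126 channel promoters had a peak within 1 kb, and 0.00497 to 0.253% of all genes did. Control H3K4me3 libraries had 9.0 ± 5.20 channel promoters with a peak (SD, n = 3) and control IgG libraries 0 in each (two-sided exact permutation test, p 0.1, the smallest for 3 against 3). HA-Bcl-xL libraries had 9.0 ± 4.24 (SD, n = 2) against 0 in 3 IgG libraries (the same exact test, p 0.2, the smallest for 2 against 3). After Benjamini-Hochberg adjustment over the 4 exact tests made, both were 0.4. Within 2.5 kb, 2 of the 126 channel genes and 99 of all 20136 genes had an IgG peak in control replicate 1, among them SCN9A, a sodium channel pore of sensory neurons, with 3 fragments.

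The sodium channel alpha subunits, which carry the action potential upstroke, included 1 gene marked in all 5 libraries, SCN11A, a sodium channel of pain-sensing neurons (ENSG00000168356.13_13). Its shared peaks held 15, 17 and 9 fragments at the summit in control replicates 1 to 3, and 12 and 14 with HA-Bcl-xL. They stood at percentile 72.8 to 95.3 of their own lists by -log10 p. Their centres lie 6 to 37 bases from the 5′ end of WDR48, a gene on the opposite strand, and 0 to 23 bases from an annotated SCN11A start. That SCN11A start was the nearer in every library but HA-Bcl-xL replicate 3, where it lay at 23 bases and WDR48 at 6. From the most 5′ end of SCN11A the summits lie 147 to 175 bases inside the gene. Control replicate 1 and HA-Bcl-xL replicate 3 had a further peak of 10 and 6 fragments at -523 and -452 bases from the 5′ end. Which of the paired genes the shared mark belongs to was not tested. SCN8A, a main sodium channel of brain neurons, had peaks in control replicate 1 and in HA-Bcl-xL replicates 2 and 3, of 6, 5 and 5 fragments. Of the other 8 alpha subunits none had a promoter peak. Among the 4 sodium channel beta subunits, SCN3B had one in control replicates 2 and 3 and HA-Bcl-xL replicate 2, of 6, 6 and 7 fragments, and the other 3 had none.

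Of the 17 potassium channel pores of the KCNA to KCND families, 3 had a promoter peak in at least 1 library, 1 of them in all 5, and 14 had none. KCNB2, a delayed rectifier of slow kinetics, had peaks of 17 fragments in control replicate 1 and 13 in HA-Bcl-xL replicate 2.

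KCNE4, an auxiliary subunit that inhibits several potassium channel pores, was marked in all 5 libraries (ENSG00000152049.7_7), and the other 4 KCNE genes in none. At its 5′ end it had peaks of 8 fragments in control replicate 1 and 10 in each HA-Bcl-xL library, and none in control replicates 2 and 3. In its intron, 332 to 420 bases in, it had peaks of 9, 8 and 7 fragments in control replicates 1 to 3 and 8 in HA-Bcl-xL replicate 2. These 7 peaks were among the weaker of their lists, at percentile 15.02 to 43.1, and with lists made equal in length KCNE4 was no longer called in all 5. With only peaks of -log10 q 5 or above, KCNE4 was the 1 of 126 channel genes marked in every HA-Bcl-xL library but never in control, near the 0.834% of all genes. That call rests on values close to the cut. The strongest KCNE4 peaks had a -log10 q of 4.98, 4.32 and 4.53 in control replicates 1 to 3, against 5.59 and 5.84 with HA-Bcl-xL.

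The ether-a-go-go family (KCNH), potassium channels that shape excitability, had peaks at 3 of its 8 promoters, none in all 5 libraries. KCNH7 had peaks of up to 14 fragments in 4 libraries and none in control replicate 3. KCNH8 had peaks of 9 to 17 fragments in control replicates 1 and 3 and HA-Bcl-xL replicate 2, and KCNH3 peaks of 3 to 5 fragments in control replicates 1 and 3 and HA-Bcl-xL replicate 3. The calcium-activated KCNN3 (1 of 4 KCNN genes) had peaks of 4 fragments in control replicate 2 and 8 in HA-Bcl-xL replicate 2. KCNJ10, an inward rectifier of glia (1 of 15 KCNJ genes), had a peak in HA-Bcl-xL replicate 2 alone and KCNK12 (1 of 15 KCNK genes) in control replicate 1 alone. None of the 5 KCNQ genes, the 10 silent subunits (KCNF, KCNG, KCNS, KCNV) or the 3 KCNT and KCNU genes had a promoter peak.

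Among the 10 calcium channel pores, CACNA1G, a low-voltage-activated T-type channel, was the 1 gene with a peak within 1 kb of its most 5′ end. Its peaks held 4 fragments in control replicate 1 and 4 in HA-Bcl-xL replicate 2. Of the 4 beta subunits, which bring the pore to the membrane, CACNB3 and CACNB4 were marked in control replicate 1 alone, by peaks of 14 and 3 fragments, and CACNB2 in HA-Bcl-xL replicate 2 alone, by one of 8. None of the 4 was marked within 1 kb of its most 5′ end in more than 1 library. CACNG7 was marked in 1 library, of 8 gamma subunits, and none of the 4 alpha2delta subunits was. HCN3 was marked of 4 HCN genes, in control replicate 1, by a peak nearer to CLK2.

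**Figure D2:**
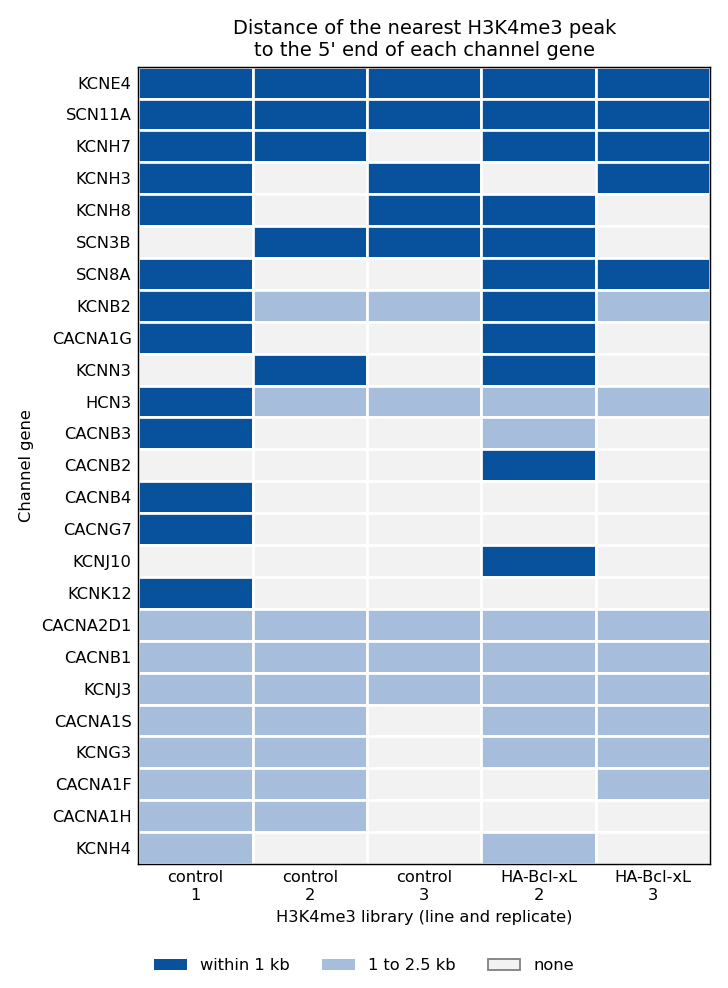
Channel genes with a peak within 2.5 kb (25 rows) in the 5 H3K4me3 libraries (columns), dark blue for a peak within 1 kb, light blue for one between 1 and 2.5 kb, grey for none. KCNE4 and SCN11A are dark in all 5 columns, and CACNA2D1, CACNB1 and KCNJ3 light in all 5.

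Several channel genes carried H3K4me3 downstream of the annotated 5′ end. KCNJ3, a subunit of G-protein-gated inward rectifiers, had peaks 1883 to 1902 and 2455 to 2515 bases in, in all 5 libraries, of 17 to 30 fragments. CACNA2D1, the alpha2delta subunit bound by gabapentin, had peaks in all 5 from 1257 to 1966 bases in, of 15 to 28 fragments. KCNB2 also had peaks in every library within 2.5 kb, of 11 to 20 fragments. HCN3 also reached all 5, by peaks nearer to CLK2. Upstream, CACNB1 had peaks in all 5 at -2383 to -2318 bases from its 5′ end, nearer to RPL19. CACNA1S, the pore of the skeletal muscle calcium channel, had peaks at -2113 to -1861 bases from its 5′ end in 4 libraries, of 7 to 13 fragments. KCNG3, a silent potassium channel subunit, had them at -1211 to -1085 in 4, nearer to MTA3, and CACNA1F, the retinal calcium channel, in 3, nearer to CCDC22. CACNA1H, a T-type pore, had peaks between 1 and 2.5 kb into the gene in 2 libraries, and KCNH4 had them upstream in 2, slightly nearer to HCRT (2112 and 2116 bases).

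Over all 120 H3K4me3 peaks within 2.5 kb of a channel gene, 24 were nearer to another gene's 5′ end, as were 6 of the 56 within 1 kb. Counting only peaks nearest to the gene's own 5′ end left 18 channel genes with a peak in at least 1 library, against 45.0% of all genes, and 2 in all 5, KCNE4 among them, against 16.9%.

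**Figure D3:**
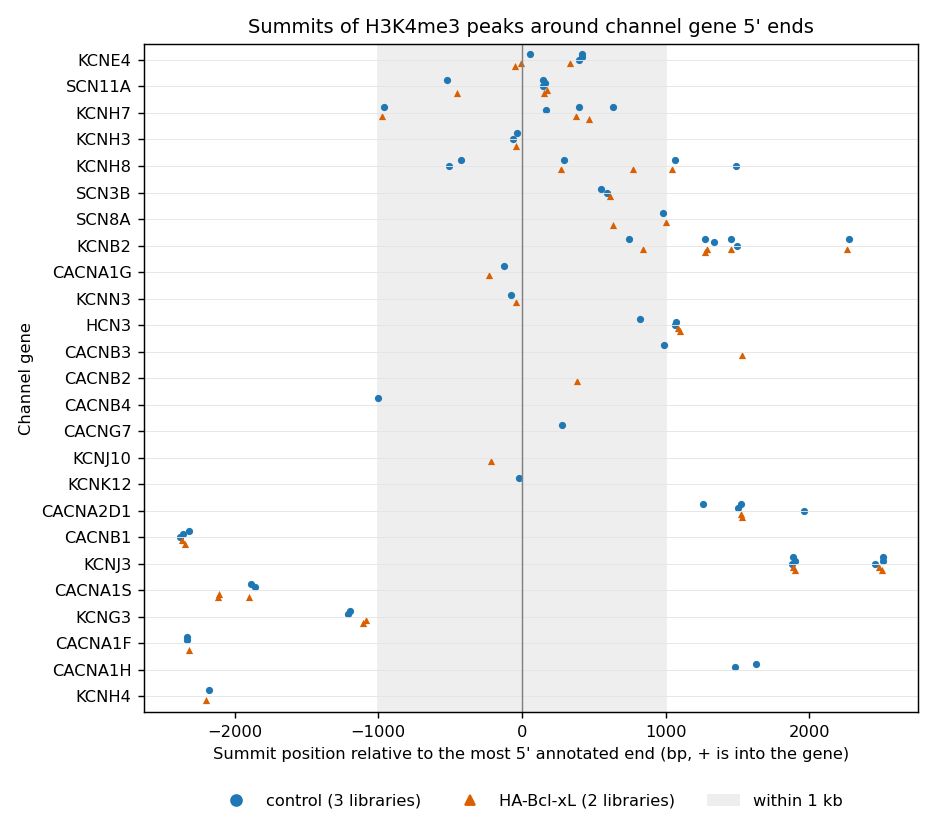
Positions of H3K4me3 summits in bases from the 5′ end of each of 25 channel genes (horizontal axis, positive into the gene), circles for control and triangles for HA-Bcl-xL libraries, with the 1 kb window shaded. Summits of KCNJ3 and CACNA2D1 lie 1257 to 2515 bases into the gene, outside the shading.

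With any annotated transcript start in place of the most 5′ one, 28 channel genes had a peak within 1 kb in at least 1 library, against 56.6% of all genes, and 5 in all 5, against 26.5%. HCN3 was among those added, and KCNE4 and SCN11A stayed. Of the 10 calcium channel pores, 4 had a peak within 1 kb of any own start in at least 1 library. CACNA1C had one in 4 H3K4me3 libraries and 1 IgG library, and CACNA1D, CACNA1G and CACNA1H in 2 H3K4me3 libraries each. CACNB3 had one in 3. Beyond 2.5 kb, the channel gene bodies held 72 regions with H3K4me3, of which 59 (81.9%) were in 1 library and 3 (4.17%) in all 5. Over all protein-coding gene bodies, counted gene by gene, 60.7% of such regions were in 1 library and 11.8% in all 5. Channel genes are long, with a median of 60.7 kb against 27.2 kb for all genes, and 29.4% of them held at least 1 such region against 23.6% of all. They held 4.25 regions per Mb of gene body against 7.0. Of the 3 in all 5, 2 lie near the 5′ end of another gene: chr12:2112888-2113175 in CACNA1C, 669 bases from DCP1B, and chr3:53380662-53381186 in CACNA1D, 689 bases from DCP1A. The third, chr12:2365023-2365207 in CACNA1C, has no annotated start near, and 5 of the 6 IgG libraries also had a peak there. CACNA1C also had regions 8, 19 and 921 bases from own annotated starts, in 1, 1 and 2 libraries. CACNA1C and CACNA1D are the L-type calcium channel pores coupled to hormone secretion. KCNQ1 had 3 regions within 892 bases of the start of KCNQ1OT1, the imprinted noncoding RNA in its intron, each in 1 library. Neither the gene body nor the 2.5 kb around the 5′ end held any H3K4me3 peak for 71 channel genes (56.3%), against 36.2% of all genes.

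The median GC content of the 2 kb window was 59.0% for channel genes against 55.0% for all genes, and 33 of the 126 fell in the highest of 10 equal classes of all genes by GC content. In that class 5 of 33 channel genes (15.2%) had a peak in at least 1 library, against 47.1% of all genes. The share was lower for channel genes in each of the 10 classes. The CpG observed-to-expected ratio had a median of 0.592 at channel promoters against 0.612 at all promoters, and was at least 0.6 at 48.4% against 51.7%. Where it was at least 0.6, 12 of 61 channel genes (19.7%) had a peak, against 71.7% of all such genes. Where it was lower, 10.8% of channel genes had one against 22.9% of all. At the rate of all genes in the same GC classes, 60.7 channel genes would have had one, and 19 did. These are descriptions of a list chosen by name and carry no test.

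**Figure D4:**
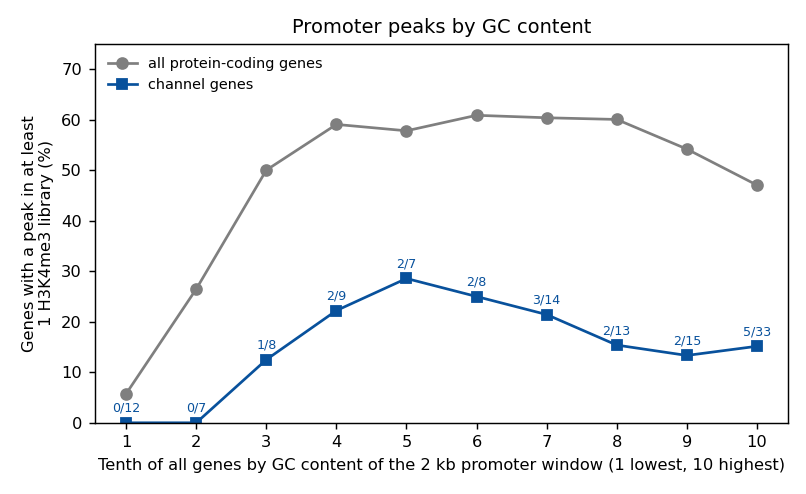
Percentage of genes with a promoter peak in at least 1 H3K4me3 library (vertical axis) by class of promoter GC content (horizontal axis, 10 equal classes of all genes), grey for all genes and blue for channel genes with their counts. Blue lies below grey in all 10 classes, at 15.2% against 47.1% in the highest.

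Sequence matches were counted on both strands within 1 kb of the 5′ end. The RE1 element of REST, the repressor of neuronal genes, was found by its consensus in KCNK12 and KCNH4, 1.59% of channel promoters, against 0.670% of all. The letters TATAAA were in 32.5% against 52.1%, and the GC box GGGCGG in 84.1% against 78.9%. A CCAAT match was in 84.1% against 87.7% and CANNTG, the E-box, in 100% against 99.9%. The full palindrome of the cyclic AMP response element was in 1.59% against 3.89%. None of these runs contains another. A match is a run of letters and not a bound site. Of 13 genes for REST and its corepressors, 7 (53.8%) had a promoter peak in at least 1 library, near the 48.2% of all genes, and KDM1A, RCOR3 and SIN3A had one in all 5. REST itself had none within 1 kb and had peaks within 2.5 kb in 2 libraries of each line. Of 47 related channel genes outside the naming rule, 15 (31.9%) had one in at least 1 library, against the same 48.2%, and TPCN1, an endolysosomal channel, UNC79, a subunit of the sodium leak channel, NEDD4L, a ubiquitin ligase of sodium channels, and CALM3, calmodulin, in all 5.

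The lines were compared by the number of channel promoters with a peak. It was 9.0 ± 4.24 in HA-Bcl-xL (SD, n = 2) and 9.0 ± 5.20 in control libraries (SD, n = 3), a difference of 0 (two-sided exact permutation test, p 1). With 1 library left out the difference ran from -3 (6 against 9, without HA-Bcl-xL replicate 2) to 3 (9 against 6 without control replicate 1, and 12 against 9 without HA-Bcl-xL replicate 3). As a share of all promoters with a peak it was 0.119 ± 0.0528% and 0.127 ± 0.0499%, a difference of -0.00839 percentage points (exact permutation p 0.8). With 1 library left out the difference in share ran from -0.0457 to 0.0290, so its direction was not kept. With 2 libraries against 3, no p under 0.2 can arise, so this comparison could not pass 0.05. The lists also differ in length, and the control replicate with most peaks had 15 of 126 channel promoters. At 0 channel promoters was the mark called in every HA-Bcl-xL library but never in control, against 0.844% of all genes. The reverse, all 3 control libraries but never HA-Bcl-xL, also held for 0, against 0.248%. With any transcript start, KCNJ3 was called in HA-Bcl-xL alone, against 0.899% of all genes, while its peaks within 2.5 kb of the most 5′ end were in all 5 libraries. That call rests on a few bases at the edge of the 1 kb window. The HA-Bcl-xL peaks began at chr2:155556158 and chr2:155556200, and the control peaks at chr2:155556211 to chr2:155556243.

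Widths were compared as bases under peaks at the regions that all 5 libraries shared. None of the 4926 shared regions differed between the lines at a limma adjusted p of 0.05 (0.0%), and 259 had an unadjusted p under 0.05. Of these regions, 9 lie within 2.5 kb of a channel gene. CACNA2D1 was 557, 724 and 204 bases wide in control and 266 and 116 in HA-Bcl-xL libraries, a log2 difference of -1.35 (SE 0.53, adjusted p 0.899 by limma), and the groups overlapped. Leaving out HA-Bcl-xL replicate 3 moved it to -0.78 and leaving out HA-Bcl-xL replicate 2 to -1.92. The first KCNJ3 region was 119, 93 and 93 bases wide in control and 156 and 151 in HA-Bcl-xL libraries, with no overlap, a log2 difference of 0.56 (SE 0.24, limma adjusted p 0.922). With peaks within 500 bp merged, this region and the second KCNJ3 region became 1, with a log2 difference of 0.068 (limma adjusted p 0.999). The SCN11A region measured 128, 111 and 123 bases in control and 147 and 117 in HA-Bcl-xL libraries, a log2 difference of 0.08 (SE 0.26, limma adjusted p 0.999). Of the 9 regions, 7 were narrower in HA-Bcl-xL libraries, and so were 52.2% of all shared regions.

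**Figure D5:**
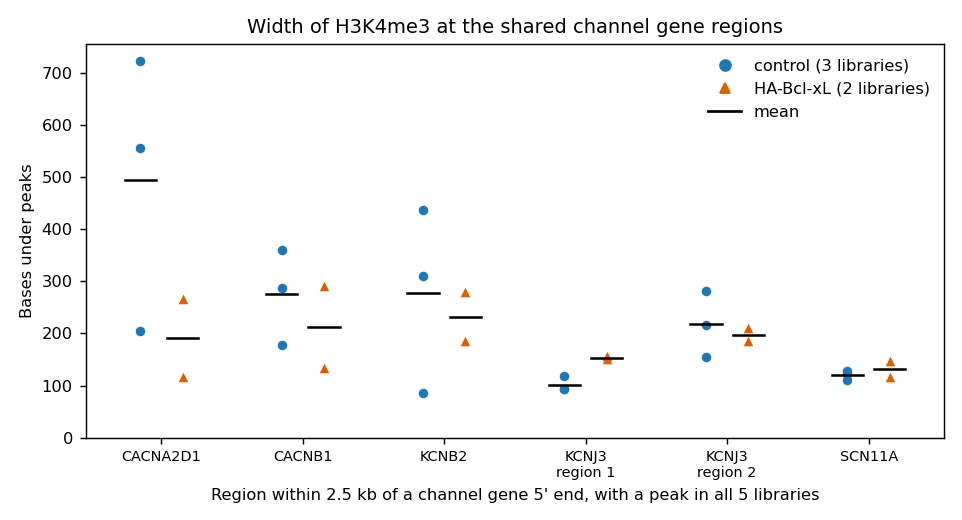
Bases under H3K4me3 peaks (vertical axis) at 6 of the 9 regions near channel genes that all 5 libraries share, circles for control and triangles for HA-Bcl-xL libraries, bars for means. KCNJ3 region 1 is the sole region drawn where the groups do not overlap, 93 to 119 against 151 and 156 bases.

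Channel promoter peaks also ranked low in their lists. Their median percentile by -log10 p was 33.1 to 43.6 per library, against 56.2 to 57.6 for all promoter peaks in the same libraries. Their median fragments at the summit were 8 to 10, against 10 to 12.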

How the data were processed

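H3K4me3 and IgG CUT&RUN libraries were analysed as the authors' deposited narrowPeak lists, 1 per library. Per the submitters' processing notes, bcl2fastq 2.20, Trimmomatic 0.36, Bowtie2 2.2.9, MACS2 2.1.1 and deepTools 3.5.1 were used with build hg19; settings are not given in the sources used here. Each list holds the authors' score, fold (a ratio), -log10 p and -log10 q per peak, all deposited values; they were used to rank and filter within a list. Fragments at the summit were solved from fold and p, as (n + 1) / (background + 1) and a Poisson tail, to within 0.001 in -log10 p.

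Autosomal peaks and those of X and Y were matched to GENCODE release 44 on GRCh37. The labels gave groups and replicate numbers but do not say that replicates are separate cultures, so p-values measure only the spread between these libraries. Exact permutation tests (scipy 1.17.1) compared libraries, and limma 3.58.1 in R 4.3.3 compared widths as log2 bases with library medians made equal; both were checked on simulated data. Other tools were matplotlib 3.10.9, pysam 0.24.0, pandas 2.3.3 and numpy 2.4.6 in Python 3.11.15. Fragment numbers carry counting error only, and PCR copies are not separate molecules.

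The channel genes and all lists were chosen with earlier results of these data known. Genes named with values were those marked within 1 kb in all 5 libraries or in every library of 1 line, those with IgG peaks, the 5 marked within 2.5 kb but not 1 kb in most libraries, and counts per family. Single results of some of these genes are not reported here, though the counts include them. Others in the text were named for their family, after their values were seen. Alternatives were other windows, starts, q limits, list lengths, summit overlap, IgG removal, width scalings, merging, omission of each library and a replicate block. The canonical start and the nearest 5' end were added after the data were seen.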

Additional observations from a re-analysis of the deposited data

How the results depend on the processing

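Of 95 values under other settings, 81 kept their side of any threshold and any direction they had, as did 62 of 71 with 1 library left out. Counts without a test were taken as kept within 1.5 times. These tallies include values that could not fail. The line difference in channel promoters was 0 and had no direction to turn. No exact test could pass 0.05, as the smallest p was 0.1 or more. The excess of channel promoters over IgG, 9 in each line, ran from 5 to 17 in control and 6 to 18 in HA-Bcl-xL cells, the lowest with a -log10 q of at least 5 (control) or lists of equal length (HA-Bcl-xL) and the highest within 2.5 kb. The line difference in channel promoters, 0 and so without a direction, ran from -0.167 to 1.5 under other settings than the block. The difference in channel share of called promoters was -0.00839 points. It turned to 0.0200 with a -log10 q of at least 5, 0.00256 with equal list lengths, 0.00195 with the canonical start and 0.0201 with the replicate block. Leaving out 1 library gave -0.0457 to 0.0290, the positive values being 0.0201 without control replicate 1 and 0.0290 without HA-Bcl-xL replicate 3. Channel promoters marked in all 5 libraries numbered 3, and 9 within 2.5 kb, 5 with any transcript start and 3 to 4 with a library left out. They numbered 2 with lists of equal length, that q limit, the canonical start or the nearest 5′ end. KCNE4 was not among them with lists of equal length or that q limit, nor SCN11A with the nearest 5′ end. Those found in HA-Bcl-xL alone numbered 1 with a -log10 q of at least 5 (KCNE4) and 1 with any transcript start or the canonical start (KCNJ3), and 0 to 2 with a library left out. The cause was not tested.

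Merging peaks within 500 bp joined the KCNJ3 regions, with a log2 width difference of 0.068 in place of 0.56 and -0.14, and turned that at CACNB1 to 0.29. At KCNB2 it turned from -0.034 to 0.0072 with no centring, 0.0088 with scaling and 0.082 with the replicate block. With a library left out it ran from -0.63 to 0.46 at KCNB2, -1.92 to -0.78 at CACNA2D1, -0.060 to 0.22 at SCN11A and -0.997 to 0.075 at CACNB1. An arm left with 1 library is assumed to vary like the other. Every setting gave 0 regions past a limma adjusted p of 0.05. The lines share replicate numbers 2 and 3, but nothing in the labels pairs them, and their width deviations correlated at -0.0146 and 0.0259. With the replicate block the count of marked channel promoters differed by 3 (exact permutation p 1). Depth limits what few fragments can show.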
